A study of Mus musculus with 12 samples.

Results

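The genes described here encode the collagens, proteoglycans, glycoproteins and remodelling enzymes of the liver's extracellular matrix, together with growth factor receptors and cytoskeletal proteins used as markers of hepatic stellate cells and the myofibroblasts they can become. They were taken by name from the gene table of the series, 36 of its 34986 genes, without collagen IV. All 36 passed the filter on low values that left 19006 genes for testing. Livers came from female C57BL/6 mice aged 16 weeks. The VPA group of 6 mice received valproic acid, used against epilepsy and known for liver injury as a side effect. The VPA_OCA group of 6 mice received valproic acid together with obeticholic acid, a bile acid derivative that activates the farnesoid X receptor (FXR). Valproic acid was thus common to both groups, mice without it were not analysed here, and neither dose nor duration is given in the sources used here. The libraries carry replicate numbers 1 to 6 in each group, and each comparison was also made within numbers 1 to 3 and within numbers 4 to 6.

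Hepatic stellate cells lie between hepatocytes and the sinusoidal endothelium and store vitamin A. When the liver is injured they can turn into contractile myofibroblasts, which make fibrillar collagen and carry smooth muscle actin. Platelet-derived growth factor acts on them mainly as a signal to divide and migrate, and transforming growth factor beta as a signal to make matrix. Lysyl oxidases crosslink the deposited collagen, matrix metalloproteinases cut it, and tissue inhibitors of metalloproteinases (TIMPs) hold those proteases back. Several of the genes are not made by stellate cells alone: hepatocytes secrete fibronectin and the collagen XVIII precursor of endostatin, and vascular smooth muscle carries the contractile proteins. In whole liver, fewer cells of a type and less RNA per cell cannot be told apart.

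Levels are the normalized counts of the authors, estimated reads divided by a factor per library, which summed to between 20236900 and 22087711 per library, at an estimated depth of 17879222 to 37699449 reads. They are given as mean ± SD with n = 6 per group, or n = 3 within a set of numbers. Fold changes are log2 differences of normalized count + 1, VPA_OCA over VPA, with standard errors, and this scale understates changes of genes with few reads. Values of p come from limma with an intensity trend, adjusted by the method of Benjamini and Hochberg over all 19006 genes, and a gene was called at an adjusted p under 0.05. Nothing in the labels says what the replicate numbers stand for. The labels describe 6 separate mice per group.

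Levels per length are the authors' FPKM, which use the gene length in their table, averaged over the 12 libraries, and they ranged widely among the 36 genes. Fn1, which encodes fibronectin, was highest at 266 FPKM and was followed by Col18a1 at 238 FPKM. Next came the proteoglycans Dcn (decorin) at 58.3 FPKM and Bgn (biglycan) at 51.8 FPKM. The matricellular protein gene Sparc stood at 36.7 FPKM and the membrane protease gene Mmp14 at 22.1 FPKM. Among the fibrillar collagens, which form the fibres of scar tissue, Col3a1 reached 11.0 FPKM, Col1a2 4.25 FPKM and Col1a1 2.71 FPKM. Acta2, the smooth muscle actin of myofibroblasts, averaged 1.11 FPKM. Lox, a lysyl oxidase, was lowest at 0.0262 FPKM, and Thbs1 (thrombospondin), Fbn1 (fibrillin) and Timp1 all lay below 0.25 FPKM. All 20 markers of quiescent stellate cells passed the filter, which asks only for a normalized count of 1 in 6 libraries. Their summed normalized count ran from 4449 to 6136 in the VPA libraries and from 4031 to 5905 in the VPA_OCA libraries.

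Adding obeticholic acid was not accompanied by a called change in any of the 36 matrix and stellate genes. Of all genes tested, 137 were called (0.721%), 84 higher (0.442%) and 53 lower (0.279%) in VPA_OCA. By limma's unadjusted p, 2 of the 36 genes lay under 0.05, Postn and Thbs1, which is 5.56% of them against 9.55% of all genes tested. In the authors' deposited table, whose test is edgeR per the submitters' processing notes, 697 of 12517 genes had an adjusted p under 0.05 (5.57%), and Postn was the 1 gene of the 36 among them. That table gives no adjusted p for Lox, Thbs1 and Timp1. The median log2 fold change of the 36 genes was -0.11, against -0.00 over all genes tested. Estimates were lower in VPA_OCA for 25 genes and higher for 11. For 31 of the 36 genes (86.1%) the 95% interval of the difference lay within a 2-fold change in either direction, against 70.6% of all genes tested. The 5 exceptions were Eln, Thbs1, Lox, Timp1 and Acta2. The median standard error was 0.25 for the 36 genes and 0.20 over all genes tested, so the higher share does not mean tighter estimates. In none of the 36 did all 6 libraries of a group lie above all 6 of the other, an arrangement found for 0.916% of all genes with VPA_OCA above and for 0.526% with VPA above.

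**Figure D1:**
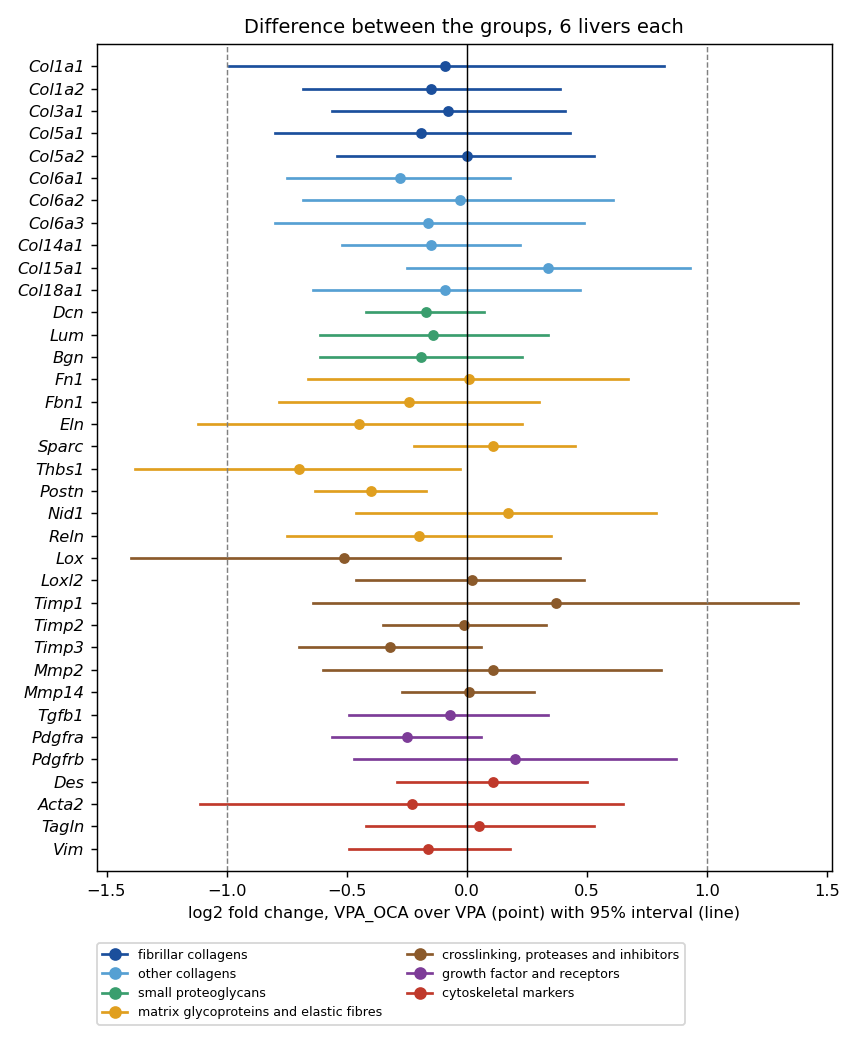
Log2 fold change, VPA_OCA over VPA, of each of the 36 genes (points, horizontal axis) with its 95% interval from limma (lines), genes in rows coloured by role and broken lines at a 2-fold change. The intervals of Postn and Thbs1 leave out 0 and those of the other 34 include it.

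Postn encodes periostin, a matricellular protein of fibroblasts that binds collagen and fibronectin. Its locus is chr3:54361109-54391037 on the plus strand of GRCm38 (ENSMUSG00000027750). Because it was the gene with the smallest p, its promoter is shown first. That of Col3a1, the fibrillar collagen gene with the highest FPKM, follows for comparison. Both are RefSeq windows of GRCm38.p6, read 5′ to 3′ on the plus strand over the 150 bases before an annotated start. Capitals mark the letters TATAAA. Postn has another such window, chr3:54359117-54359266, before a different annotated start, which does not hold these letters and is not shown.
Postn, chr3:54360957-54361106: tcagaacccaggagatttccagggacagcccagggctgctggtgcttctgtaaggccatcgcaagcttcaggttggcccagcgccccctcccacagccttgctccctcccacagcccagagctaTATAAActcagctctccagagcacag
Col3a1, chr1:45311388-45311537: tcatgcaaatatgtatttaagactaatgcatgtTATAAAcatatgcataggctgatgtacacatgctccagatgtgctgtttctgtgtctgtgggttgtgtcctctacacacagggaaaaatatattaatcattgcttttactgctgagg
In Postn the letters began at position -26 from the start, and in Col3a1 at -117. The promoter table held 23 of the 36 genes. With both strands searched, TATAAA was in the windows of 3 of them (Col3a1, Postn and Vim), against 7.57% of 32851 windows of this length. CCAAT was in those of 4, against 24.5%, and GGGCGG in those of 12, against 28.6%. These are matches of letters only. A gene was counted when any of its windows held the letters, whereas the percentages are shares of windows. Genes with several windows, such as Postn, had more chances of a match. The gene counts therefore cannot show an excess or a lack against these percentages.

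The VPA libraries held Postn normalized counts of 280.8, 231.0, 270.6, 253.9, 287.8 and 297.2 for numbers 1 to 6. The VPA_OCA libraries held 190.7, 211.1, 175.2, 200.1, 257.7 and 197.1. Of the VPA_OCA libraries, 5 lay below all VPA libraries, and number 5 lay among the VPA values, so the groups overlapped. The means were 270.2 ± 24.3 and 205.3 ± 28.3, a log2 fold change of -0.40 ± 0.11 with an adjusted p of 0.13. With the number set (1 to 3 or 4 to 6) as a term in the limma fit, the standard error was 0.10 and Postn was called lower in VPA_OCA, at an adjusted p of 0.041. In that fit 404 genes were called (2.13%), of which 150 were lower (0.789%), and Postn was the only one of the 36. With the replicate number as a block its adjusted p was 0.11, with 210 genes called (1.1%) and 0 of the 36. The authors' deposited table gives Postn an adjusted p of 0.016. The estimate was alike in both sets, -0.44 ± 0.15 within numbers 1 to 3 and -0.36 ± 0.13 within numbers 4 to 6, and the difference between the sets was 0.07 ± 0.20.

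Thbs1 encodes thrombospondin, which can release transforming growth factor beta from its latent complex. Its normalized count was low, with a lowest, median and highest of 9.486, 18.4 and 21.06 in VPA and of 5.368, 8.333 and 22.82 in VPA_OCA. The highest of all 12 values was in VPA_OCA 6, while the other 5 VPA_OCA libraries lay below 9.74. The log2 fold change was -0.70 ± 0.32 (adjusted p 0.51), and the means were 16.34 ± 4.87 and 10.31 ± 6.33.

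All 5 fibrillar collagen genes had fold changes near 0, with a median of -0.09 and a range of -0.19 to -0.00. Col1a1 and Col1a2 encode the chains of type I collagen, the main collagen of scar. Col1a1 averaged 94.63 ± 24.4 in VPA and 111.9 ± 80.5 in VPA_OCA, and its log2 fold change was -0.09 ± 0.42. For Col1a1, as for Col5a2 and Col6a2, the arithmetic mean was higher in VPA_OCA while the mean of the log2 values, which sets the sign used here, was lower. Col1a2 averaged 212.8 ± 50.2 and 202.5 ± 87.4, a log2 difference of -0.15 ± 0.25. Col3a1, which encodes type III collagen, averaged 428.9 ± 101 and 420.5 ± 164. Col5a1 and Col5a2 encode type V collagen, which starts and limits the fibres. Col5a1 stood at 128.7 ± 24.4 and 125.3 ± 64.0, and Col5a2 at 54.59 ± 12.6 and 56.8 ± 21.4. For each of the 5 genes the SD was larger in VPA_OCA than in VPA.

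Of the 6 other collagens, 5 had negative estimates and Col15a1 a positive one, with a median of -0.12. Collagen VI forms beaded filaments around cells. Its chains averaged 176.6 ± 30.5 in VPA and 152.1 ± 56.1 in VPA_OCA for Col6a1, 87.1 ± 33.0 and 87.59 ± 38.9 for Col6a2, and 115.7 ± 41.4 and 107 ± 48.0 for Col6a3. Col14a1, a collagen found on the surface of fibrils, stood at 977.9 ± 252 and 870.4 ± 181. Col15a1, a collagen of basement membrane zones, had values of 104.3, 129.6 and 242.8 (lowest, median, highest) in VPA and 89.45, 162.2 and 367.2 in VPA_OCA, with a log2 fold change of 0.34 ± 0.28. The Col15a1 high was in VPA_OCA 6. Col18a1 ran from 10620 through a median of 17550 to 23460 in VPA and from 8793 through 17430 to 23660 in VPA_OCA, nearly the same range, and its log2 fold change was -0.09 ± 0.26.

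The small proteoglycans, which bind collagen fibrils and set their spacing, were all 3 estimated slightly lower in VPA_OCA, with a median of -0.17. Dcn had a lowest, median and highest normalized count of 1922, 2536 and 2691 in VPA and of 1783, 2131 and 2483 in VPA_OCA, a log2 fold change of -0.17 ± 0.11 (adjusted p 0.71). Bgn ran from 1274 through 1615 to 2383 and from 980.6 through 1472 to 2044, with a log2 fold change of -0.19 ± 0.20. Lum (lumican) averaged 144.7 ± 36.4 and 133.4 ± 42.8. The ranges of the groups overlapped for all 3.

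The 8 glycoprotein and elastic fibre genes include Postn and Thbs1 and had a median of -0.22. Fn1 ran from 13170 through a median of 22180 to 31490 in VPA and from 10340 through 24240 to 36620 in VPA_OCA, so its VPA_OCA range enclosed the VPA range, and the log2 fold change was 0.01 ± 0.31. Eln, which encodes elastin, ran from 22 through 30.88 to 42.16 and from 11.47 through 24.96 to 54.97, a log2 fold change of -0.45 ± 0.32 (adjusted p 0.74). Sparc ran from 683.9 through 966.7 to 1232 and from 810.3 through 1075 to 1226. Fbn1, the microfibril protein that carries elastin, averaged 40.52 ± 11.2 and 34.86 ± 12.8. Nid1 (nidogen), a linker of the basement membrane, averaged 264.7 ± 68.7 and 323.1 ± 163. Reln (reelin), a secreted glycoprotein that in liver marks stellate cells, averaged 833.1 ± 311 and 722.3 ± 259.

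The 7 genes of crosslinking, proteolysis and its inhibition had a median of 0.01. Timp3, an inhibitor held in the matrix, ran from 414.6 through 548.7 to 628.4 in VPA and from 296.8 through 407 to 746.6 in VPA_OCA, where number 2 stood far above the other 5. Its log2 fold change was -0.32 ± 0.18 (adjusted p 0.64), and without VPA_OCA 2 it was -0.48 (adjusted p 0.15). The exons of Timp3 overlap those of Syn3 on the other strand, and 14 of the 36 genes have such an overlap in GENCODE M21. The use of strand in counting is not given in the sources used here, so reads of the 2 strands may have been mixed for these genes. Timp1, an inhibitor long used as a marker of fibrotic liver, had few reads, with 0, 3.596 and 6.15 in VPA and 2.08, 3.708 and 11.41 in VPA_OCA. Timp2 averaged 235.6 ± 51.9 and 232.2 ± 42.3. Mmp14, which activates the gelatinase encoded by Mmp2, ran from 571.5 through 645.3 to 785.3 and from 544.1 through 646.3 to 830, a log2 fold change of 0.01 ± 0.13. Mmp2 averaged 38.21 ± 12.5 and 44 ± 22.7. The crosslinking enzymes stood at 51.24 ± 14.7 and 51.9 ± 14.5 for Loxl2 and at 2.778 ± 1.68 and 1.752 ± 1.42 for Lox, and Lox was at 0 in VPA_OCA 1.

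Of the growth factor and receptor genes, Tgfb1, which encodes transforming growth factor beta, averaged 107.4 ± 30.1 in VPA and 101.2 ± 22.4 in VPA_OCA. Pdgfra, a receptor of platelet-derived growth factor, ran from 69.01 through 79.88 to 109.6 and from 59.28 through 73.85 to 80.52, a log2 fold change of -0.25 ± 0.15 (adjusted p 0.66). Pdgfrb, the receptor that marks stellate cells and pericytes, averaged 120.9 ± 46.9 and 144.2 ± 72.3, with a log2 fold change of 0.20 ± 0.31. The 4 cytoskeletal markers had a median of -0.05. Des (desmin), an intermediate filament of stellate and muscle cells, ran from 60.01 through 85.64 to 117 and from 81.13 through 83.9 to 122.4. Acta2 averaged 44.32 ± 22.6 and 39.95 ± 22.8, and Tagln (transgelin), an actin-binding protein of smooth muscle, 144.9 ± 43.4 and 149.4 ± 43.2. Vim (vimentin), the intermediate filament of mesenchymal cells, averaged 379.4 ± 82.6 and 336 ± 51.4.

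**Figure D2:**
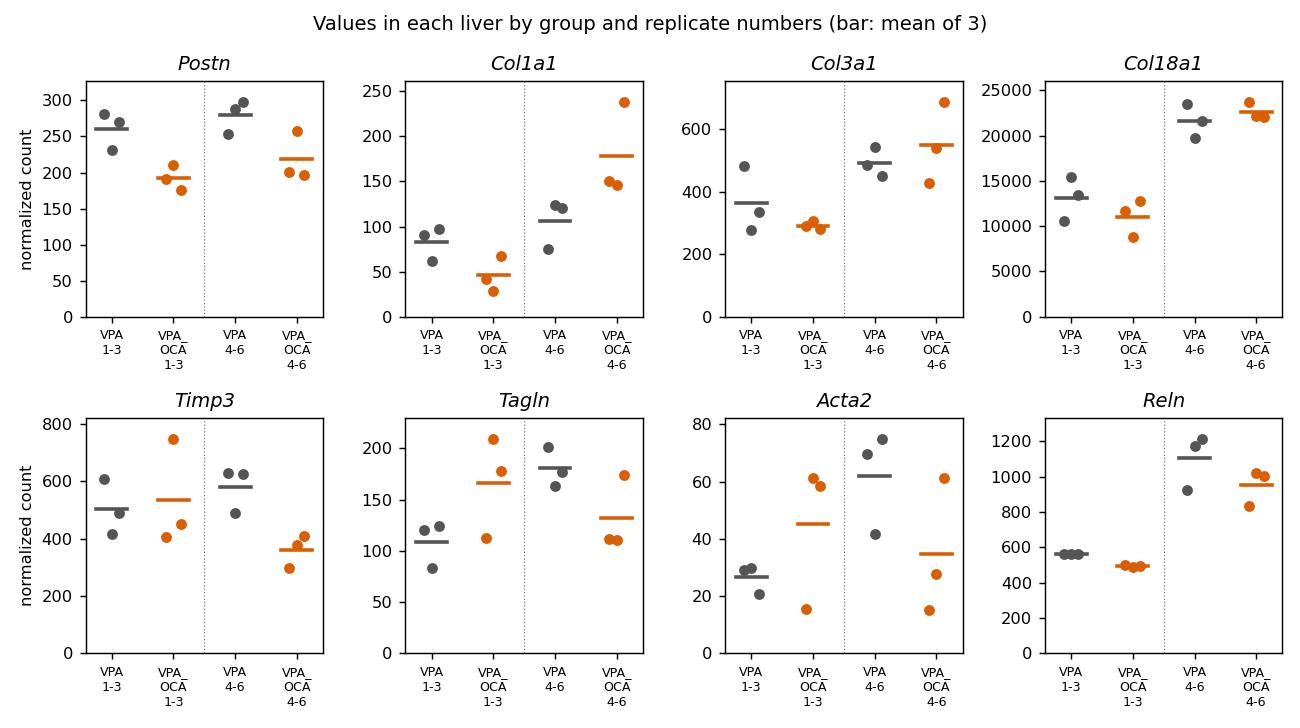
Normalized counts of 8 of the genes in each library (points, vertical axes from 0), by group and replicate numbers 1 to 3 or 4 to 6, with bars at the mean of 3. Postn is lower in VPA_OCA in both sets, whereas Col1a1 in VPA_OCA runs from 28.08 in number 2 to 237.5 in number 6.

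Within a group, these genes varied between libraries by more than the median gene did. Over the 32 members with a mean log2 value above 5, the median SD of the log2 values within groups was 0.45, against 0.243 over the 11481 genes above that level. Within group and number set the medians were 0.25 and 0.182. VPA_OCA 6 was the highest library for 14 of the 36 genes, and VPA 6 for 6. VPA_OCA 2 was the lowest for 12, VPA 2 for 8 and VPA_OCA 1 for 6. The median deviation of the 36 genes from their own means over the 12 libraries was -0.07, -0.37 and -0.17 on the log2 scale in VPA 1 to 3 and 0.28, 0.33 and 0.38 in VPA 4 to 6. In VPA_OCA it was -0.48, -0.52 and -0.31 for numbers 1 to 3 and 0.09, 0.28 and 0.51 for numbers 4 to 6. In both groups the libraries numbered 1 to 3 lay below and those numbered 4 to 6 above the mean, while the median deviation over all genes was between 0.00 and 0.04 in every library.

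**Figure D3:**
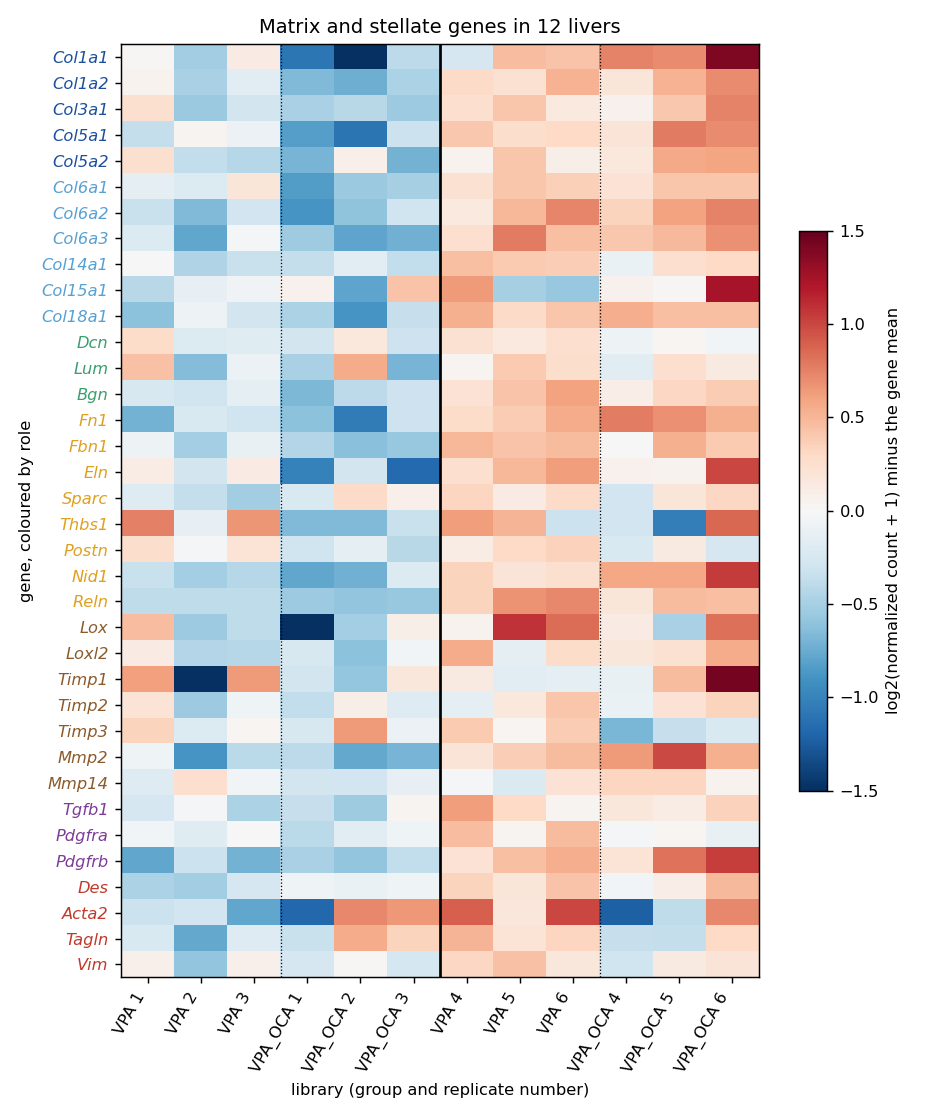
Log2(normalized count + 1) of each gene (rows, names coloured by role) minus the gene's mean over the 12 libraries (columns, numbers 1 to 3 left and 4 to 6 right of the black line), with colours limited at 1.5 in either direction. Libraries numbered 4 to 6 are mostly above the mean (red) and those numbered 1 to 3 mostly below it (blue), in VPA and in VPA_OCA.

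Between the number sets, many of these genes differed in level in both treatment groups alike. The difference is given as a description without a test, because the sets were seen to stand apart in these data and the labels name no batch. In 14 of the 36 genes all 6 libraries numbered 4 to 6 lay above all 6 numbered 1 to 3, against 5.65% of all genes tested. These were Col1a2, Col5a1, Col6a1, Col6a2, Col6a3, Col18a1, Bgn, Fn1, Fbn1, Nid1, Reln, Mmp2, Pdgfrb and Des. In 0 of the 36 the numbers 1 to 3 all lay above, against 4.97% of all genes. The median log2 difference, numbers 4 to 6 minus 1 to 3, was 0.51 in VPA and 0.77 in VPA_OCA, against -0.01 and -0.02 over all genes tested. Within both groups separately, the 3 libraries numbered 4 to 6 lay above the 3 numbered 1 to 3 for 17 of the 36 genes, against 7.92% of all genes. The difference was positive in both groups for 31 of the 36 genes (86.1%), against 33.6% of all genes. After a correction for GC content the medians were 0.48 and 0.67. The median GC content was 52.9% for the 36 genes and 49.6% for all genes tested.

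Reln gave the plainest case. Its normalized counts were 564.6, 564.1 and 560.9 in VPA 1 to 3 and 925.9, 1172 and 1211 in VPA 4 to 6. In VPA_OCA they were 500.1, 487.8 and 492.2 for numbers 1 to 3 and 830.8, 1019 and 1004 for numbers 4 to 6, so in either group the sets were about 1 log2 unit apart (0.96 and 0.94). Fn1 stood at 16280 ± 2730 in numbers 1 to 3 and 28520 ± 2740 in numbers 4 to 6 of VPA, and at 13910 ± 3500 and 34120 ± 2770 in VPA_OCA. Pdgfrb stood at 80.33 ± 14.6 and 161.5 ± 18.5 in VPA and at 86.88 ± 6.88 and 201.4 ± 56.4 in VPA_OCA. Collagens other than the fibrillar ones had set differences with medians of 0.70 in VPA and 1.01 in VPA_OCA. Fibrillar collagens had 0.46 and 1.09. The cytoskeletal markers had 0.74 in VPA but -0.07 in VPA_OCA, with Acta2 at 1.16 and -0.36 and Tagln at 0.74 and -0.32. Postn differed little between the sets, by 0.10 and 0.17.

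**Figure D4:**
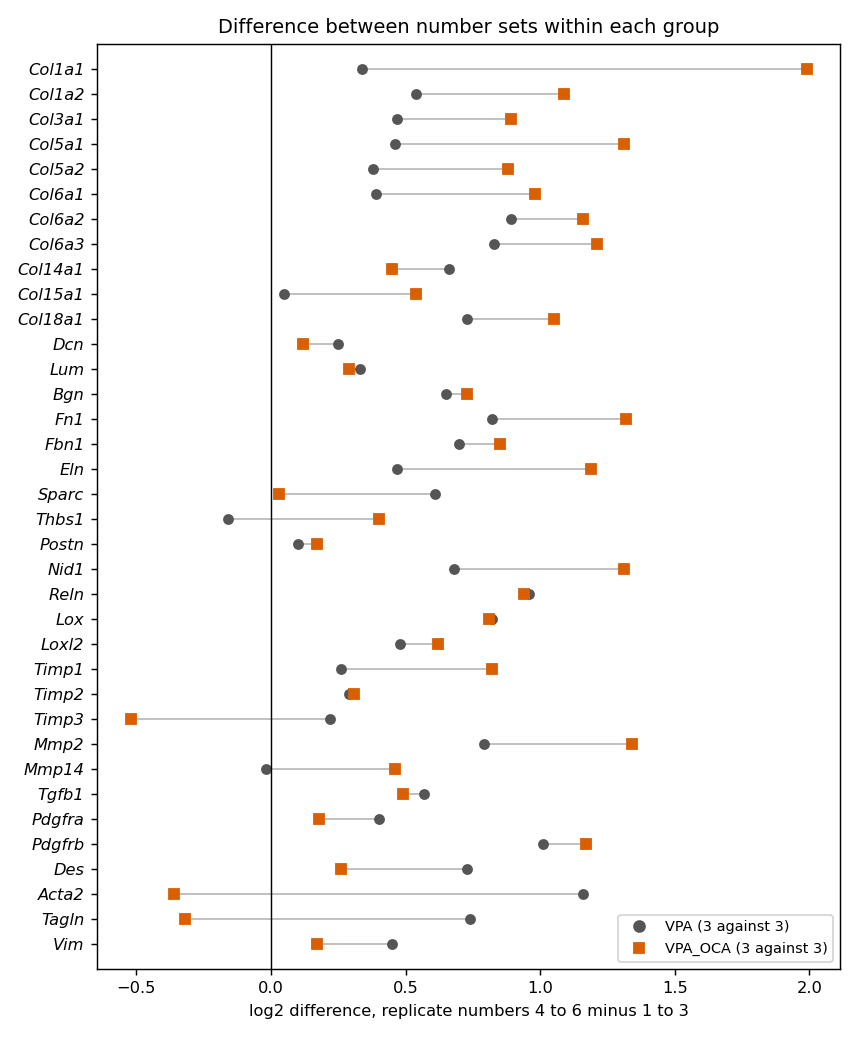
Log2 difference between replicate numbers 4 to 6 and 1 to 3 (horizontal axis) for each of the 36 genes in rows, within VPA (grey circles) and within VPA_OCA (orange squares), 3 libraries against 3. For 31 genes both marks lie right of 0, while Acta2, Tagln and Timp3 lie left of 0 in VPA_OCA, and Thbs1 and Mmp14 in VPA.

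Other gene lists also differed between the sets, and their part in the values of the 36 genes was not tested. Further matrix and pathway lists had positive median log2 differences in both groups: 0.45 in VPA and 0.40 in VPA_OCA for collagen processing enzymes, 0.40 and 0.45 for other interstitial matrix proteins, 0.42 and 0.52 for basement membrane genes, and 0.31 and 0.41 for the transforming growth factor beta pathway. Of the cell type lists, some had sums that stood apart between the sets in 1 group or in both. Others had sums that overlapped in both groups. The summed normalized count of 12 macrophage markers ran from 4693 to 6328 in VPA 1 to 3 and from 9059 to 12450 in VPA 4 to 6. In VPA_OCA it ran from 5192 to 8892 and from 6413 to 9003, so there the sets overlapped. The sum of 12 sinusoidal endothelial markers ran from 4951 to 5928 and from 7755 to 8365 in VPA, and from 4936 to 6164 and from 4777 to 6563 in VPA_OCA. The sum of 20 quiescent stellate markers overlapped between the sets in both groups, at 4449 to 5840 and 5203 to 6136 in VPA and at 4031 to 5905 and 4666 to 5134 in VPA_OCA. Vascular smooth muscle markers summed to 1248 to 1530 and 1689 to 1874 in VPA, and to 1640 to 1945 and 2032 to 2365 in VPA_OCA. These sums were apart in both groups, but most of each was Mylk, at 1024 to 2108 per library. The median log2 difference over the tested genes of that list was 0.62 in VPA and -0.34 in VPA_OCA. Cholangiocyte markers were apart in VPA_OCA only, at 548.5 to 876.6 and 947.8 to 1064, against 716.1 to 1047 and 689 to 778.1 in VPA. Sums of 10 hepatocyte markers were likewise apart in VPA_OCA only, at 2303000 to 2716000 and 3311000 to 3711000. In VPA they ran from 2579000 to 3255000 and from 3017000 to 3643000. Most of each sum was Alb, at 1512000 to 2600000 per library. The hepatocyte list's median log2 differences were alike, 0.21 in VPA and 0.24 in VPA_OCA. The medians for mesothelial markers were 0.25 in VPA and 0.50 in VPA_OCA, with overlapping sums in both. Sums of portal fibroblast, lymphocyte, adipocyte and skeletal muscle markers also overlapped between the sets in both groups.

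Within the sets the treatment comparison gave 0 calls among the 36 genes by limma. Within numbers 1 to 3, 121 of all genes were called (0.637%), and 9 of the 36 genes had an unadjusted p under 0.05, against 12.4% of all genes. Within numbers 4 to 6, 95 genes were called (0.5%), and 7 of the 36 had an unadjusted p under 0.05, against 11.3%. The estimates of the fibrillar collagens differed in sign between the sets. All 5 were lower in VPA_OCA within numbers 1 to 3 (median -0.42) and higher within numbers 4 to 6 (median 0.24). That pattern of signs was found in 15 of the 36 genes (41.7%) and in 22.3% of all genes tested. The opposite pattern was found in 5 of the 36 (13.9%), against 22.5% of all genes, and these included Des, Acta2 and Tagln. The difference itself, tested as an interaction of group and number set, gave 2 calls among all genes (0.0105%) and 0 among the 36. Its unadjusted p was under 0.05 for 9 of the 36 (25%), against 8.36% of all genes: Col1a1, Col1a2, Col5a1, Col6a1, Sparc, Nid1, Timp3, Mmp14 and Tagln.

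Col1a1 showed the widest gap among these. In numbers 1 to 3 its normalized counts were 90.25, 62.01 and 97.17 in VPA and 41.39, 28.08 and 67.78 in VPA_OCA, with 1 VPA_OCA library above the lowest VPA library. In numbers 4 to 6 they were 74.56, 123.7 and 120.1 in VPA and 150.4, 146.0 and 237.5 in VPA_OCA, with no overlap. The log2 fold changes were -0.91 ± 0.31 (adjusted p 0.27) and 0.74 ± 0.25 (adjusted p 0.28). Their difference of 1.65 ± 0.43 had an unadjusted p of 0.0017 and an adjusted p of 0.36 in the limma fit. The ratio of the Col1a1 to the Col1a2 level per length moved too. In order of replicate number it was 0.426, 0.304 and 0.614 in VPA_OCA 1 to 3 and 0.863, 0.662 and 0.946 in VPA_OCA 4 to 6. In VPA it was 0.567, 0.565 and 0.71 for numbers 1 to 3 and 0.398, 0.685 and 0.546 for numbers 4 to 6. The ratio of Col1a2 to Col3a1 varied less, between 0.307 and 0.495 over all 12 libraries.

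Tagln and Acta2, markers of contractile cells, had the opposite signs. Tagln stood at 109.2 ± 22.7 in VPA and 166.6 ± 49.4 in VPA_OCA within numbers 1 to 3 and at 180.6 ± 19.4 and 132.1 ± 36.5 within numbers 4 to 6. Its interaction was -1.06 ± 0.34 (adjusted p 0.43). For Acta2 the log2 fold changes were 0.53 ± 0.45 and -0.99 ± 0.45. Over 9 tested markers of vascular smooth muscle the medians were 0.40 within numbers 1 to 3 and -0.55 within numbers 4 to 6. Skeletal muscle transcripts were present in VPA 4 and VPA 5, where Acta1 read 164.2 and 24.95, against at most 3.221 in the other 10 libraries. In VPA 6 Acta1 read 0. Acta2 in VPA 4 to 6 was 69.52, 41.57 and 74.83, and Tagln 201.5, 163.1 and 177.1. A part of muscle tissue in these values was not tested. With VPA 4 and VPA 5 left out, 0 of the 36 genes were called and 18 rather than 25 were lower in VPA_OCA. Both are numbered 4 to 6, so VPA was left with fewer libraries of that set than VPA_OCA. Muscle transcripts and this imbalance of the sets cannot be told apart in that count. Timp3 also differed by set. It was 628.4, 490.7 and 624.1 in VPA 4 to 6 against 296.8, 377.2 and 409.2 in VPA_OCA 4 to 6, without overlap. The log2 fold change there was -0.69 ± 0.14 (adjusted p 0.096), and within numbers 1 to 3 it was 0.05 ± 0.22.

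The treatment groups did not overlap within numbers 1 to 3 for 6 of the 36 genes, against 18.6% of all genes, and within numbers 4 to 6 for 7, against 16.8%, both near the background. Within numbers 1 to 3 the 3 VPA libraries lay above the 3 VPA_OCA libraries for 5 of the 36 genes (Col6a1, Bgn, Thbs1, Postn and Reln), against 8.62% of all genes. Des was the 1 gene with VPA_OCA above, against 9.99%. Within numbers 4 to 6, VPA_OCA lay above for Col1a1, Nid1 and Mmp2, 3 of the 36, against 9.53%. VPA lay above for Col14a1, Dcn, Timp3 and Pdgfra, 4 of the 36, against 7.31%.

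**Figure D5:**
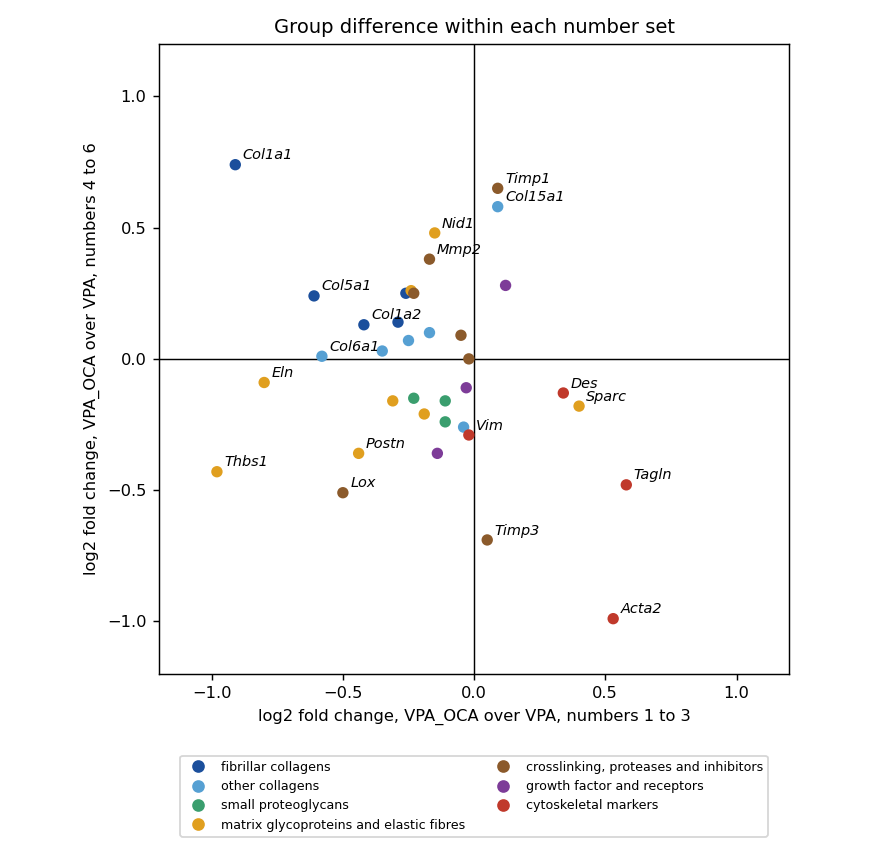
Log2 fold change, VPA_OCA over VPA, of each of the 36 genes (points coloured by role) within replicate numbers 1 to 3 on the horizontal axis and within numbers 4 to 6 on the vertical axis. All 5 fibrillar collagens lie in the upper left, lower within numbers 1 to 3 and higher within numbers 4 to 6, and Des, Acta2 and Tagln lie in the lower right.

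Other genes of the same pathways were read from the same limma fit, and 0 of the members of 17 further lists were called in it. Of 22 enzymes that process collagen, 17 had lower and 5 higher estimates, with a median log2 fold change of -0.11. The smallest p among them was that of Bmp1, the protease that trims procollagen, at 2276 ± 244 in VPA and 1680 ± 312 in VPA_OCA (log2 fold change -0.45 ± 0.12, adjusted p 0.12). In the transforming growth factor beta pathway, 18 of 25 genes had lower estimates (median -0.09), and its smallest p was that of Smad4, a shared signal carrier (adjusted p 0.66). Of 30 other interstitial matrix proteins 17 had lower estimates (median -0.04), of 15 basement membrane genes 11 (median -0.10) and of 20 quiescent stellate markers 14 (median -0.12). The matching counts over all genes tested were 9518 lower and 9488 higher.

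With the number set as a term, 5 of the 222 tested genes of these lists were called (2.25%, against 2.13% of all genes): Reck, Pdgfa, Omd, Mylk and Lyve1. Reck, a membrane protein that restrains metalloproteinases, stood at 73.27 ± 27.4 in VPA and 158 ± 50.9 in VPA_OCA, a log2 fold change of 1.12 ± 0.26. Its adjusted p was 0.071 with group as the only term and 0.00022 with the set term. Pdgfa, a ligand of the receptor Pdgfra, stood at 74.9 ± 21.5 and 121.6 ± 30.0, a log2 fold change of 0.70 with an adjusted p of 0.15 and, with the set term, 0.0063. Both were also called with the replicate number as a block. The other 3, the proteoglycan gene Omd (set-term adjusted p 0.029), the myosin kinase gene Mylk (0.035) and the endothelial receptor gene Lyve1 (0.031), were not.

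Among the other lists, 21 matrix proteases and inhibitors were split into 11 higher and 10 lower estimates (median 0.02), and of 4 genes for ligands of the platelet-derived growth factor family 3 had lower ones (median -0.21). In the basement membrane list the laminin gene Lamc3 had the smallest p, at 24.54 ± 7.26 in VPA and 17.01 ± 7.6 in VPA_OCA (adjusted p 0.56). Among quiescent stellate markers it was Ednrb, an endothelin receptor gene, at 135.8 ± 8.81 and 106.6 ± 10.6, a log2 fold change of -0.35 ± 0.11 (adjusted p 0.2). Omd was nearly absent in VPA, at 2.005 ± 1.63, and stood at 10.2 ± 8.09 in VPA_OCA.

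The lists of other cell types were read in the same way. All 12 sinusoidal endothelial markers had lower estimates in VPA_OCA (median -0.25), among them Lyve1 at 164 ± 32.5 and 105.1 ± 23.5, but the list's median was 0.07 within numbers 1 to 3 and -0.56 within numbers 4 to 6. Of 12 macrophage markers 7 were lower (median -0.05, smallest p Vsig4, adjusted p 0.84), and of 9 lymphocyte markers 7 (median -0.14, Cd8a, 0.73). Of 11 portal fibroblast markers 6 were lower (median -0.01, Gli1, 0.5), and of 9 mesothelial markers 3 (median 0.03, Lrrn4, 0.54). Vascular smooth muscle markers were split into 5 higher and 4 lower (median 0.05), with Mylk at 1305 ± 176 and 1668 ± 290. Cholangiocyte markers were split into 4 and 5 (median -0.08, Cftr, 0.73), and hepatocyte markers into 5 and 5 (median -0.03, Hnf4a, 0.43). All 5 tested adipocyte markers were lower (median -0.35, Fabp4, 0.73), as were the 4 tested skeletal muscle markers (median -0.58, Ckm, 0.7), the list whose transcripts stood out in VPA 4 and VPA 5. Within numbers 1 to 3 the medians of these lists were above 0, at 0.30 for adipocyte and 0.26 for skeletal muscle markers, and within numbers 4 to 6 they were -1.01 and -1.51.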

How the data were processed

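Livers of 12 mice, 6 per group, were snap-frozen, and Trizol-extracted RNA was sequenced with a TruSeq kit, per the labels' protocols. Sample titles gave each group and replicate number. Per the submitters' processing notes, edgeR (no version) and the build GRCm38.p5 were used; no source used here gives the aligner, counter or strand use. The deposited table holds normalized counts, a signal per gene, per the file headers. It also holds FPKM, p-values with adjusted p-values, and a GC fraction for each gene, all as made by the authors. Where a cell combined a decimal comma with an exponent, it read 1000 times too high; such cells (89 normalized counts, 129 FPKM, 238 p-values and 88 adjusted p-values) were corrected on reading. No per-sample column was left unused (0).

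In each library 80.5% to 85.0% of low values lay within 0.1 of a whole multiple of the smallest step, so reads were not recovered and no count model was used. A gene was tested when 6 or more libraries had a normalized count of 1 or more. The test was limma 3.58.1 with a trend (R 4.3.3) on log2(value + 1), group as the only term, with a threshold of 0.05 after Benjamini-Hochberg adjustment. The fit was tested on simulated data that held no difference between the number sets, so that test does not cover such a difference. Alternatives were other filters, scalings, pseudocounts (0.1 and 5), FPKM (pseudocount 0.05), thresholds (0.10 and 0.01), no trend, array weights, a replicate block, the number set as a term, also with a loess GC correction (span 0.4), and leaving out each library, or VPA 4 and VPA 5. Depth varied little but for VPA_OCA 1, and genes with few reads, such as Lox and Timp1, are measured least precisely. In the 6 pairs of equal replicate number, deviations from the group means were positively correlated (Pearson r 0.48, 0.15, 0.33, 0.20, 0.36 and 0.37 over 11481 genes). The VPA_OCA library with the highest r had the same number only for VPA 3 and VPA 5. With the set means removed too, r ran from -0.37 to 0.22. The labels do not say what a number stands for.

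The 36 genes, the 17 further lists and the tests were chosen with earlier results of these data known. Values by library, or lowest, median and highest, are given for members called with or without the set term, the 6 with the smallest p, the 6 with the highest FPKM and those with a library that stands apart; each further list is represented by its gene with the smallest p. Other values given by library were chosen after they were seen. Figures were drawn with matplotlib 3.10.9.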

Additional observations from a re-analysis of the deposited data

Results flagged for a closer look

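In 72 sets of 6 values (36 genes in 2 groups), 5 had a library whose gap to its nearest neighbour took up more of the whole range than Dixon's 95% critical value allows. Chance flags about 1 in 20 such sets. Col15a1 was 242.8 in VPA 4, where the next value was 150.1 and the lowest 104.3. In VPA_OCA 6 there were 3 such values, Thbs1 at 22.82 (next 9.736, lowest 5.368), Timp1 at 11.41 (next 5.368, lowest 2.08) and Des at 122.4 (next 93.4, lowest 81.13). Timp3 was 746.6 in VPA_OCA 2, where the next value was 450.2 and the lowest 296.8. All are normalized counts.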

How the results depend on the processing

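With group as the only term 137 of all genes were called. The count was 210 with the replicate block, 404 with the number set as a term and 417 with the set term and GC correction, and it was 223 at an adjusted p under 0.10 and 62 under 0.01. Of the 36 genes, 1 (Postn) was called with the set term, and 1 (Postn) with the set term and GC correction (adjusted p 0.026). Under the other alternatives 0 were called, the replicate block included. Over all alternatives the adjusted p of Postn ran from 0.026 to 0.28. Leaving out each library in turn left 93 to 148 calls over all genes, 0 to 0 among the 36 genes in each of the 4 comparisons, and a median log2 fold change of -0.2 to -0.01. Each omission also unbalances the number sets between the groups. Without a VPA library of numbers 1 to 3, 25 to 30 of the 36 genes were lower in VPA_OCA. Without one of numbers 4 to 6, 22 to 24 were lower. For omitted VPA_OCA libraries the counts were 20 to 22 and 28 to 30. The replicate block changed no call among the 36. Over 25 alternatives (24 for Lox and Timp1, which a stricter filter removes), 18 of the 36 genes kept the sign of their fold change and 18 changed it at least once. The filters, the fit without trend, the replicate block and the set term alone leave each fold change as it was. These alternatives could not change a sign. Of the calls over all genes, 61.3% were higher in VPA_OCA, and 73.2% of 97 without the trend. Few reads limit Lox, Timp1 and Thbs1.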
